A study of Mus musculus with 16 samples.

Results

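The Schlafen (Slfn) genes were followed in RNA-sequencing data of mouse BMDMs, that is, of macrophages that were differentiated in culture from bone marrow cells. The members were chosen by name, as Slfn1, Slfn2, Slfn3, Slfn4, Slfn5, Slfn8 and Slfn9, and each was matched to its Ensembl identifier. All 7 were found among the 55487 genes of the count table, and all 7 were among the 12372 genes with a CPM (counts scaled to library size) above 1 in at least 2 samples. The macrophages came from WT Balb/c mice of 8 weeks, and 16 samples fell into 6 groups. Macrophages in DMEM, a plain culture medium, gave 2 samples (DMEM), and macrophages in DMEM with ruxolitinib gave 3 (DMEM + Rux). The other groups received conditioned medium of 4T1 cells, a mouse mammary tumor cell line, which holds the soluble factors those cells release. There were 3 samples with this medium alone (CM), 3 with 0.5 µM ruxolitinib and a label of 4 h (CM + Rux), 2 with 0.5 µM ruxolitinib and a label of 2 h (CM + Rux 2 h), and 3 with 0.5 µM ruxolitinib and 0.8 µM IKK-16 (CM + Rux + IKK-16). The labels do not give the ruxolitinib dose in DMEM, and they do not say what the hours refer to. They also do not say whether samples of a group came from separate animals or cultures, so p-values measure the spread between these samples.

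Schlafen proteins take their name from the German word for sleep, after the growth arrest that early members caused in thymocytes. Mouse members are grouped by length. The short proteins Slfn1 and Slfn2 hold the core Schlafen domain, the intermediate Slfn3 and Slfn4 add a linker region, and the long Slfn5, Slfn8 and Slfn9 add a helicase-like domain. Many members are induced by type I interferon, which acts through the kinases JAK1 and TYK2 and a transcription factor complex, of which IRF9 is a part, that binds interferon-stimulated response elements (ISRE). Ruxolitinib inhibits JAK1 and JAK2. IKK-16 inhibits the IKK kinases, which release the transcription factor NF-κB. Slfn2 is best known for keeping resting T cells and monocytes quiescent.

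The 7 genes lie within 263.8 kb of chromosome 11 (mouse genome GRCm38). In order along the chromosome they are Slfn5 at chr11:82951349-82964840 on the plus strand, Slfn9 at chr11:82978390-82991830 and Slfn8 at chr11:83002158-83020810 on the minus strand, then Slfn2 at chr11:83065112-83070678, Slfn1 at chr11:83116849-83122670, Slfn4 at chr11:83175186-83190216 and Slfn3 at chr11:83191330-83215154 on the plus strand. The pseudogene Slfn10-ps sits between Slfn8 and Slfn2. The coding length was 337 residues for Slfn1, 378 for Slfn2, 640 for Slfn3, 602 for Slfn4, 884 for Slfn5 and 910 for both Slfn8 and Slfn9. Coding sequences were 92.7% identical between Slfn8 and Slfn9, 86.3% between Slfn3 and Slfn4 and 66.2% between Slfn1 and Slfn2, over all alignment columns. Reads could still be told apart: of all stretches of 150 bases in their transcripts, 1.46% of Slfn9 also occurred in Slfn10-ps, 1.29% of Slfn3 occurred in the gene model Gm11427, and none of the other 5 members occurred in another transcript. Of the 4 other annotated genes with a Slfn name, Slfn14 had 0 counts in every sample, Slfnl1 at most 1 and Slfn5os, which lies antisense to Slfn5, at most 2, while Slfn10-ps had 461 to 1882.

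The promoters of the 3 long members hold the core of an ISRE, spelled GAAA, any 2 bases and GAAA, within 250 bases upstream of the RefSeq start site. The sequences below are the 200 bases upstream of each start (RefSeq, GRCm38.p6), written 5′ to 3′ in the direction of transcription. Capitals mark the ISRE core, which reads as its reverse complement in Slfn8 and Slfn9. The windows are chr11:82951902-82952101 on the plus strand for Slfn5, chr11:83020811-83021010 on the minus strand for Slfn8 and chr11:82991831-82992030 on the minus strand for Slfn9.
Slfn5: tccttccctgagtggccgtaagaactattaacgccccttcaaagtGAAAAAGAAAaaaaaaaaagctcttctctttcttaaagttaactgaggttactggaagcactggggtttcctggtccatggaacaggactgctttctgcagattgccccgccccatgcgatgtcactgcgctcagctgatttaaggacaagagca
Slfn8: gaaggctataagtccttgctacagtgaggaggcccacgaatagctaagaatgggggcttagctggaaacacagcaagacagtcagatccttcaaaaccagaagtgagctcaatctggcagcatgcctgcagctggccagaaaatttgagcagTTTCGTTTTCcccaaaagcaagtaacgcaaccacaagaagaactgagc
Slfn9: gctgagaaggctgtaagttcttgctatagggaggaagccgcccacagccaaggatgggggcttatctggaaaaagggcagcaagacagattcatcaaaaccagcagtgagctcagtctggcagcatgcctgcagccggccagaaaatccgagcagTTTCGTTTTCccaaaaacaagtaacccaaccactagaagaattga
The core lies at bases -155 to -146 of Slfn5, -48 to -39 of Slfn8 and -45 to -36 of Slfn9. The RefSeq start of Slfn5 lies 753 bases downstream of its Ensembl start, so the printed Slfn5 window falls inside the gene span given above. Slfn8 had 2 RefSeq windows, and only the one at its Ensembl start was searched. On either strand, it was found in 3 of 7 members and in 3.44% of 32851 mouse promoter windows of the same length, which run to 50 bases past the start. The Slfn8 and Slfn9 windows were 81.0% identical, so their matches are not separate observations. The letters TTCNNNGAA of a GAS element were in no member and in 8.3% of all windows. The NF-κB consensus was found in Slfn1 and Slfn9 and in 4.51% of all windows. A match of letters is not a measured binding site.

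The short and intermediate members had no ISRE core in this window but shared a run of 9 bases, which was noticed after the sequences had been read. The sequences below are the 100 bases upstream of each RefSeq start on the plus strand, and capitals mark the shared run. The windows are chr11:83116720-83116819 for Slfn1, chr11:83065012-83065111 for Slfn2, chr11:83191230-83191329 for Slfn3 and chr11:83175086-83175185 for Slfn4.
Slfn1: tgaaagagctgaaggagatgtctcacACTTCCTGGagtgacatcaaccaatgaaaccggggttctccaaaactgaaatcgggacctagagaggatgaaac
Slfn2: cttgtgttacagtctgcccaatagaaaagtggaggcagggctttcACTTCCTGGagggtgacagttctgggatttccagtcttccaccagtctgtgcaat
Slfn3: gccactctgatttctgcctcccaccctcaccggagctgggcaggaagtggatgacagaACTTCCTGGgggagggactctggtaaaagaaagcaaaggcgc
Slfn4: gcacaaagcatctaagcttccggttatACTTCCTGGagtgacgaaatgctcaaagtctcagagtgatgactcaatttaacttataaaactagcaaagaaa
The run lies at bases -74 to -66 of Slfn1, -55 to -47 of Slfn2, -42 to -34 of Slfn3 and -73 to -65 of Slfn4. It was in 0.843% of all promoter windows on either strand. The run was picked as the longest one common to these members, so its presence in them was fixed and the share is no test of enrichment. The run does not overlap the NF-κB match of Slfn1 at bases -43 to -34.

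Total counts ranged from 18449388 to 46215853 per sample. All 10 macrophage markers examined were above the filter, with a summed level of 34310 to 45539 CPM, of which Lyz2 made up most. Some markers of other cells had 0 counts in every sample. These were Cd3g, Cd8a, Trac and Ncr1 of T and NK cells, Pax5 and Blk of B cells, Ly6g of neutrophils and the keratins Krt5 and Krt14 of epithelial cells. Other genes of the lists were present: 3 of 10 T and NK genes and 2 of 7 B cell genes passed the filter. So did 1 of 8 neutrophil, 1 of 6 dendritic cell and 0 of 6 epithelial genes. The neutrophil list of 8 genes summed to 0.327 to 0.355 CPM in DMEM and 1.72 to 3.24 CPM in CM, and the epithelial list of 6 genes to at most 0.118 CPM in DMEM and 0.692 to 1.45 CPM in CM, which is the range of the scarce Slfn1 and Slfn4. The B cell list of 7 genes moved with the medium through Ighm, since its sum was 80.2 to 144 CPM in DMEM and 10.6 to 14.2 CPM in CM. The T and NK list of 10 genes moved through Il7r, from 105 to 158 CPM in DMEM to 218 to 281 CPM in CM and 358 to 406 CPM in CM + Rux + IKK-16. The fibroblast list was 15.7 to 33.6 CPM over all samples, and 5 of its 6 genes passed the filter.

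Slfn2 was by far the most abundant Schlafen transcript in these macrophages. Compared per kilobase of exon, Slfn2 made up 70.0% ± 4.40 (SD, n = 2) of the summed level of the 7 genes in DMEM and 92.9% ± 0.435 (n = 3) in CM + Rux. Its level per length ranked 131 of 12372 tested genes in DMEM and 63 in CM + Rux. Slfn5 came next in DMEM, with 19.6% ± 3.62 of the family level, followed by Slfn8 with 8.21% ± 0.489. Slfn1, Slfn3, Slfn4 and Slfn9 each made up at most 1.34% of the family level in any sample. The sum of the family was 301 ± 53.7 CPM per kb in DMEM (n = 2), 157 ± 24.5 in DMEM + Rux (n = 3), 603 ± 57.6 in CM (n = 3), 584 ± 58.8 in CM + Rux (n = 3), 892 ± 56.7 in CM + Rux 2 h (n = 2) and 476 ± 20.5 in CM + Rux + IKK-16 (n = 3). The sum therefore mostly followed Slfn2, and the other members are described on their own scale.

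**Figure D1:**
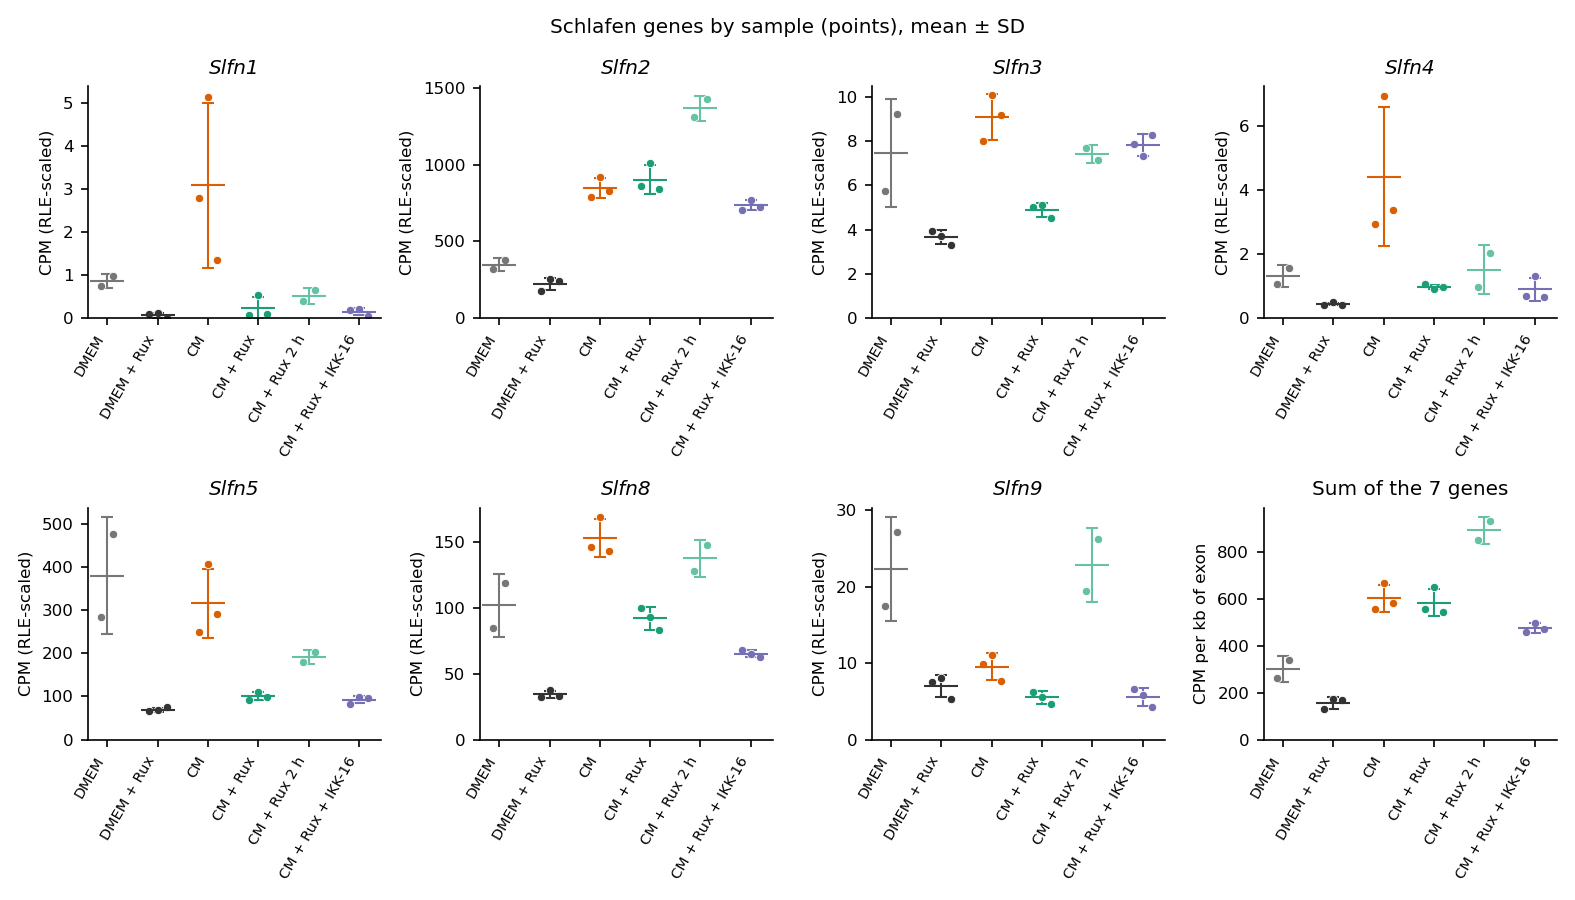
CPM of each Schlafen gene by sample (RLE-scaled, linear axes that start at 0) in the 6 groups, with the sum of the 7 genes in CPM per kb of exon in the last panel. Points are samples and bars are the mean ± SD (n = 2 or 3). Slfn2 is highest in the groups with tumor medium, Slfn1 and Slfn4 stand out in CM alone, and Slfn9 is highest in DMEM and in CM + Rux 2 h.

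Tumor medium raised Slfn2 and Slfn4 and lowered Slfn9, while Slfn1 and Slfn8 were called higher by calls that depended on single samples. This comparison of CM with DMEM shows which Schlafen genes differ between conditioned and plain medium. It does not separate factors released by the 4T1 cells from other differences between the media. A gene was called with edgeR's quasi-likelihood test at a Benjamini-Hochberg adjusted p below 0.05 over all 12372 genes and a log2 fold change beyond 0.5. By this rule 4 members were higher and 1 was lower, where 20.9% of all genes were called higher and 24.1% lower. In bulk RNA, fewer cells of a type and less RNA per cell cannot be told apart.

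Slfn2 had 320 and 377 CPM in the DMEM samples and 791, 920 and 829 CPM in the CM samples. Every CM sample was above both DMEM samples. The log2 fold change was 1.28 ± 0.14 (SE, adjusted p = 3.7e-06). Slfn1, a suppressor of thymocyte growth, was scarce, with 0.739 and 0.982 CPM in DMEM and 2.78, 5.14 and 1.34 CPM in CM. The CM samples were again all higher but spread widely, with CM replicate 2 far above the others, and the log2 fold change was 1.87 ± 0.63 (adjusted p = 0.018). Without CM replicate 2 the log2 fold change of Slfn1 was 1.25 (adjusted p = 0.10), and without DMEM replicate 1 or 2 the adjusted p was 0.11 and 0.060, so this call rests on single samples.

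Slfn4, a gene linked to myeloid cell development, had 1.06 and 1.56 CPM in DMEM and 2.95, 6.92 and 3.38 CPM in CM. The groups did not overlap, CM replicate 2 was once more the highest, and the log2 fold change was 1.79 ± 0.41 (adjusted p = 0.0018). Its neighbour Slfn3 had 5.73 and 9.21 CPM in DMEM and 8.01, 10.1 and 9.20 CPM in CM. These groups overlapped, and the log2 fold change of 0.30 ± 0.17 was not called (adjusted p = 0.14). It changed sign to -0.014 when counts were scaled by total counts only.

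Among the long members, Slfn8 had 84.6 and 119 CPM in DMEM and 146, 169 and 143 CPM in CM. The CM samples lay above both DMEM samples, with a log2 fold change of 0.59 ± 0.13 (adjusted p = 0.0015). Slfn9, its closest relative by sequence, moved the other way, from 17.5 and 27.1 CPM in DMEM to 9.90, 11.1 and 7.66 CPM in CM. Every CM sample was lower, and the log2 fold change was -1.22 ± 0.24 (adjusted p = 5.6e-04). Slfn5 had 284 and 475 CPM in DMEM and 250, 406 and 290 CPM in CM, which overlapped, with a log2 fold change of -0.27 ± 0.20 (adjusted p = 0.27). DMEM replicate 2 had the higher value of the pair for all 7 genes, so a member near the threshold depended on which DMEM sample was kept. Without DMEM replicate 1, Slfn8 had a log2 fold change of 0.36 and was not called, and Slfn5 was called lower at -0.59. Without DMEM replicate 2, Slfn3 was called higher at 0.67 and Slfn5 had a log2 fold change of 0.15. The RLE scaling used here lifted the median gene by 0.312 (log2) in this comparison against total counts, and on total counts Slfn8 was not called (0.28) and Slfn5 was called lower (-0.58). Directions of Slfn1, Slfn2, Slfn4, Slfn8 and Slfn9 were the same under both scalings. The B cell, T and NK, neutrophil and epithelial sums given above differed between the same groups, and their part in these results was not tested.

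**Figure D2:**
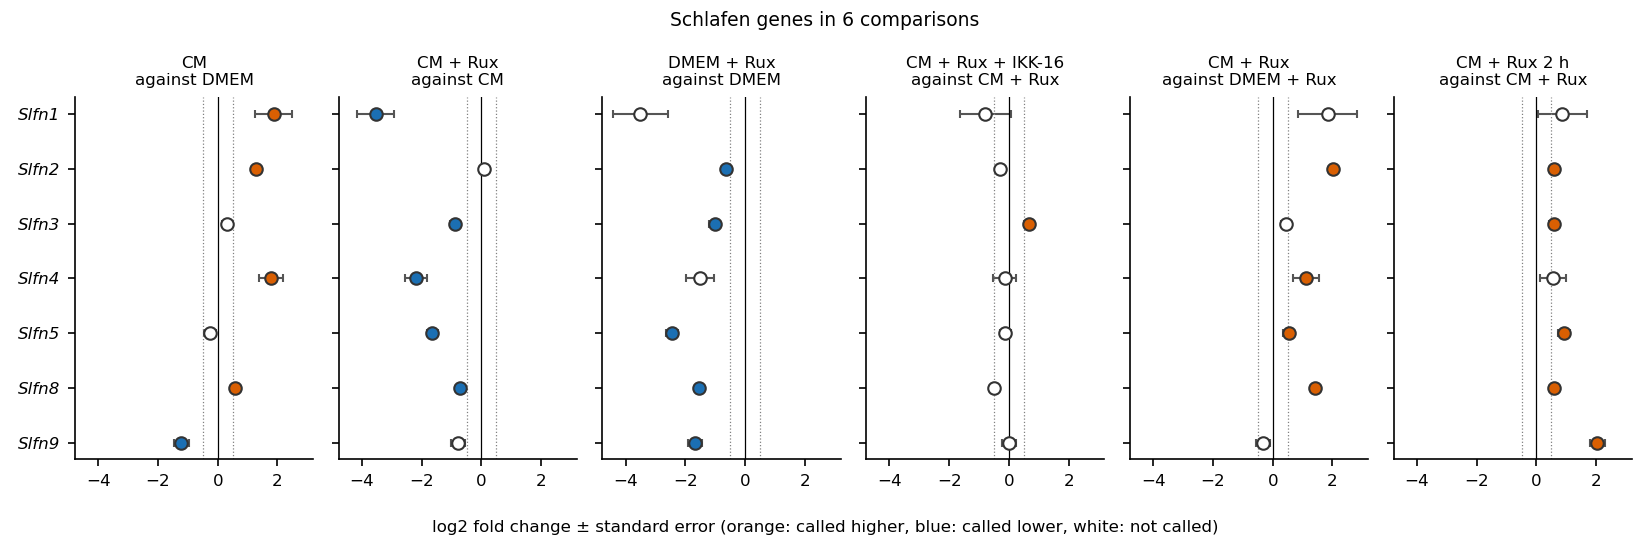
Log2 fold change ± standard error of the 7 Schlafen genes in 6 comparisons. Orange points were called higher, blue points lower and white points were not called, and dotted lines mark the fold threshold of 0.5. Both panels of ruxolitinib against its own medium hold called points below 0 only, and Slfn3 is the called point when IKK-16 is added.

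Ruxolitinib lowered most Schlafen genes in tumor medium, while no change of the abundant Slfn2 was called. In CM + Rux against CM, which addresses JAK dependence in tumor medium, 5 members were called lower and 0 higher, where 2.13% of all genes were lower and 1.2% higher. The 0 members higher were also 0 at an unadjusted p below 0.05 and by DESeq2. These 5 calls (Slfn1, Slfn3, Slfn4, Slfn5 and Slfn8) were kept when any sample was left out.

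Slfn2 stayed at 859, 1012 and 840 CPM in CM + Rux, which overlapped with the 791 to 920 CPM of CM. The log2 fold change was 0.09 ± 0.12 (adjusted p = 0.84). Slfn1 went to 0.0809, 0.533 and 0.102 CPM, which rest on 3, 22 and 2 counts. All were below the lowest CM sample, with a log2 fold change of -3.54 ± 0.62 (adjusted p = 0.0041). Its size depended on single samples, with -5.08 without CM + Rux replicate 2 and -2.92 without CM replicate 2.

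Slfn4 fell to 1.05, 0.920 and 0.967 CPM, a tight group below all CM samples. Its log2 fold change was -2.19 ± 0.37 (adjusted p = 0.0027). Slfn3 fell to 5.04, 5.11 and 4.53 CPM, also below all CM samples, with a log2 fold change of -0.89 ± 0.16 (adjusted p = 0.0037).

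Slfn5, a nuclear member known as an interferon-induced gene, fell to 92.2, 111 and 98.6 CPM. No sample reached the lowest CM sample at 250 CPM, and the log2 fold change was -1.65 ± 0.19 (adjusted p = 1.7e-04). Slfn8 fell to 99.9, 92.6 and 83.0 CPM, again without overlap, with a log2 fold change of -0.73 ± 0.12 (adjusted p = 0.0021). Slfn9 had 6.28, 5.57 and 4.68 CPM, each below the lowest CM sample, but its log2 fold change of -0.79 ± 0.23 was not called (adjusted p = 0.073). With the replicate numbers fitted as a block, Slfn9 was called lower at -0.79 (adjusted p = 0.025).

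In plain DMEM ruxolitinib lowered all 3 long members most clearly, and Slfn2 was lower as well. In DMEM + Rux against DMEM, 5 members were called lower and 0 higher, where 0.97% of all genes were called lower and 0% higher. The 0 genes higher by edgeR became 50 at an unadjusted p below 0.05 with the same fold threshold and 0 by DESeq2, and none of the 50 was a Schlafen gene.

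Slfn5 went from 284 and 475 CPM to 65.4, 68.4 and 74.7 CPM. Its log2 fold change was -2.45 ± 0.20 (adjusted p = 8.5e-06). Slfn8 went from 84.6 and 119 CPM to 32.4, 37.4 and 33.3 CPM, with a log2 fold change of -1.56 ± 0.13 (adjusted p = 8.5e-06). Slfn9 went to 7.48, 8.08 and 5.34 CPM, with a log2 fold change of -1.67 ± 0.24 (adjusted p = 0.0013). Every DMEM + Rux sample was below both DMEM samples for the long members. The share of all genes without overlap between these groups was not counted. The calls of the long members were kept when any sample was left out.

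The intermediate Slfn3 had 3.93, 3.73 and 3.30 CPM in DMEM + Rux, below both DMEM samples, and a log2 fold change of -1.03 ± 0.17 (adjusted p = 0.0058). Slfn4 had 0.416, 0.491 and 0.421 CPM, also below both DMEM samples, but its log2 fold change of -1.52 ± 0.47 was not called (adjusted p = 0.33). The short Slfn2 had 180, 253 and 242 CPM, below both DMEM samples, with a log2 fold change of -0.63 ± 0.13 (adjusted p = 0.037). Slfn1 was almost absent, with 2, 5 and 0 counts against 25 and 24 in DMEM. The log2 fold change of Slfn1 was -3.51 ± 0.91, which was not called (adjusted p = 0.14) but was called with the replicate block (-3.38, adjusted p = 0.031). The Slfn2 and Slfn3 calls were weaker than those of the long members. Slfn2 lost its call in 12 of the 16 fits that left out 1 sample, among them those without DMEM replicate 1 or 2 or DMEM + Rux replicate 1 or 3 (adjusted p from 0.057 to 0.30), Slfn3 lost it without DMEM replicate 2 (-0.65, adjusted p = 0.10), and neither was called when these 2 groups were fitted alone (adjusted p = 0.30 and 0.21).

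**Figure D3:**
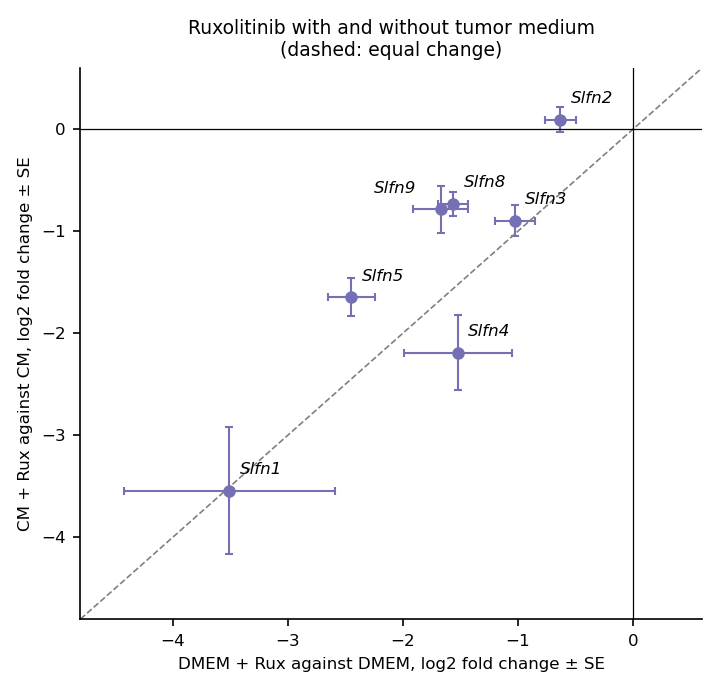
Log2 fold change ± standard error of each Schlafen gene under ruxolitinib in DMEM (horizontal axis) and in tumor medium (vertical axis), with a dashed line of equal change. Slfn2, Slfn5, Slfn8 and Slfn9 lie above the line and Slfn1 and Slfn3 lie close to it.

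Whether ruxolitinib acted differently in the 2 media was tested directly as an interaction. No member was called, where 0.234% of all genes were called higher and 0.178% lower. The difference (effect in CM minus effect in DMEM, log2) was 0.83 ± 0.17 for Slfn8 (adjusted p = 0.052), 0.72 ± 0.18 for Slfn2 (adjusted p = 0.11), 0.80 ± 0.27 for Slfn5 (adjusted p = 0.29), and 0.89 ± 0.33 for Slfn9 (adjusted p = 0.36). At an unadjusted p below 0.05 with the fold threshold, all 4 of these were higher, as were 433 of the 12372 genes. DESeq2 called 2 of the 4, Slfn2 and Slfn8, where it called 149 of all genes higher and 88 lower. With the replicate numbers fitted as a block, 3 were called: Slfn2 at 0.74 (adjusted p = 0.0057), Slfn5 at 0.81 (adjusted p = 0.026) and Slfn8 at 0.81 (adjusted p = 0.013). Whether a difference between the media was called therefore depended on the model. The share of all genes called with the block was not counted. Slfn3 (0.13, adjusted p = 0.99) and Slfn4 (-0.67, adjusted p = 0.91) were not called in any setting tried.

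Adding IKK-16 to CM + Rux raised Slfn3, and no other member was called. The comparison of CM + Rux + IKK-16 with CM + Rux asks what IKK-16 adds in the presence of ruxolitinib. In it, 1 member was called higher and 0 lower, where 4.07% of all genes were higher and 3.66% lower. The 0 members lower were also 0 at an unadjusted p below 0.05 with the fold threshold and 0 by DESeq2. Slfn3 had 7.86, 7.31 and 8.30 CPM with IKK-16, above all of the CM + Rux samples at 4.53 to 5.11 CPM. Its log2 fold change was 0.67 ± 0.15 (adjusted p = 0.010). Slfn8 had 67.7, 65.0 and 62.5 CPM, below every CM + Rux sample, and a log2 fold change of -0.50 ± 0.12 (adjusted p = 0.012), which stopped just short of the fold threshold. Slfn8 was called in 6 of the 16 fits that left out 1 sample, with the largest change, -0.57, without CM + Rux replicate 3.

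The abundant Slfn2 had 708, 772 and 728 CPM with IKK-16, below the 840 CPM of the lowest CM + Rux sample. Its log2 fold change was -0.30 ± 0.12 (adjusted p = 0.12). Slfn5 had 82.9 to 98.0 CPM and a log2 fold change of -0.12 ± 0.18 (adjusted p = 0.72). Slfn9 had 4.25 to 6.57 CPM and a log2 fold change of 0.00 ± 0.23 (adjusted p = 1.0). Slfn1, with 2 to 7 counts, and Slfn4, with 23 to 43 counts, were too scarce for a change of moderate size to be seen, and both overlapped with CM + Rux. The Il7r level given above was highest in the IKK-16 group, and its part in these results was not tested.

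With ruxolitinib in both media, Slfn2 and Slfn8 were still higher in tumor medium. JAK activity was not measured in these samples. In CM + Rux against DMEM + Rux, 4 members were called higher and 0 lower, where 22.3% of all genes were higher and 25% lower. The count of 0 lower was the same at an unadjusted p below 0.05 and by DESeq2. This comparison shares the CM + Rux samples with those above, so values are given side by side. Slfn2 rose from 180 to 253 CPM in DMEM + Rux to 840 to 1012 CPM in CM + Rux, with a log2 fold change of 2.01 ± 0.13 (adjusted p = 1.1e-08), against 1.28 without ruxolitinib. Slfn8 rose from 32.4 to 37.4 CPM to 83.0 to 99.9 CPM, with a log2 fold change of 1.42 ± 0.12 (adjusted p = 1.9e-07), against 0.59 without ruxolitinib. For each gene the gap between these 2 values is the interaction given above, not a separate result. In the model used it was not called for Slfn2 (adjusted p = 0.11) or Slfn8 (adjusted p = 0.052). The samples of the groups were well apart for both genes. Between the same groups the B cell sum was 88.0 to 141 CPM in DMEM + Rux and 12.2 to 15.5 CPM in CM + Rux. The T and NK sum was 128 to 168 CPM against 190 to 300 CPM, and the neutrophil sum was 0.369 to 0.536 CPM against 1.65 to 2.34 CPM. Their part in these results was not tested.

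Slfn5 was called higher at 0.54 ± 0.18 (adjusted p = 0.019) and Slfn4 at 1.12 ± 0.44 (adjusted p = 0.035). Neither call was firm: Slfn4 was not called when any of the 6 samples was left out (adjusted p from 0.056 to 0.084), Slfn5 was not called without CM + Rux replicate 2 or DMEM + Rux replicate 1 or 2 (adjusted p from 0.052 to 0.069), and neither was called on total counts (0.23 for Slfn5 and 0.82 for Slfn4), which lie 0.301 lower for the median gene. Slfn3 had a log2 fold change of 0.43 ± 0.16, below the fold threshold (adjusted p = 0.029). Slfn9 had -0.33 ± 0.23 (adjusted p = 0.22) and was called lower on total counts (-0.63, adjusted p = 0.024). Slfn1 had 1.84 ± 0.998 (adjusted p = 0.12) on few counts.

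Several Schlafen genes were higher in the samples labelled 2 h than in those labelled 4 h, with the largest fold change in Slfn9. In CM + Rux 2 h against CM + Rux, 5 members were called higher and 0 lower, where 12.6% of all genes were higher and 10.7% lower. The count of 0 lower was the same at an unadjusted p below 0.05 and by DESeq2. Slfn9 had 19.5 and 26.3 CPM in the 2 h samples, far above the 4.68 to 6.28 CPM of the 4 h samples. Its log2 fold change was 2.03 ± 0.24 (adjusted p = 3.3e-05), and its level reached that of DMEM without ruxolitinib. Slfn5 had 179 and 202 CPM against 92.2 to 111 CPM, with a log2 fold change of 0.92 ± 0.20 (adjusted p = 0.0028). Slfn2 had its highest levels of all samples here, 1309 and 1426 CPM, with a log2 fold change of 0.60 ± 0.13 (adjusted p = 0.0032).

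Smaller rises were seen in Slfn3 (0.60 ± 0.17, adjusted p = 0.014) and Slfn8 (0.58 ± 0.13, adjusted p = 0.0030). Slfn3 was not called without 2 h replicate 2 (adjusted p = 0.10), and Slfn8 was at 0.47 without 2 h replicate 3. Slfn4 and Slfn1 were not called, with 0.54 ± 0.44 (adjusted p = 0.35) and 0.86 ± 0.83 (adjusted p = 0.43). The 2 h samples also stood apart in marker sums: the dendritic cell list of 6 genes, mostly Zbtb46, was 8.84 to 12.8 CPM against 2.21 to 2.33 CPM in the 4 h samples, and the B cell list was 55.7 to 71.4 CPM against 12.2 to 15.5 CPM. Pax5 and Blk were at 0 in all of them. The part of these differences in the Schlafen values was not tested, and the 2 h group holds 2 samples without a replicate 1.

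Pathway genes were counted beside the Schlafen genes with 3 hand-written lists. Of 30 interferon-stimulated genes, 28 were lower and 0 higher in DMEM + Rux against DMEM, with a median log2 fold change of -3.05 against 0.01 for all genes, from -5.81 for the chemokine gene Cxcl10 to -0.53 for Bst2, which tethers virus particles. In CM + Rux against CM, 21 were lower and 0 higher, with a median of -1.81, from -4.06 for Ifit3 to -0.12 for Gbp2. The Schlafen median was -1.56 in DMEM and -0.89 in CM. In CM against DMEM, 1 of the 30 was higher and 9 were lower, where 20.9% of all genes were higher and 24.1% lower. The median was -0.42, and the Schlafen median was 0.59. When IKK-16 was added, 2 of 30 were lower, with a median of -0.21, where 3.66% of all genes were lower. In CM + Rux against DMEM + Rux, 11 of 30 were higher and 5 lower, where 22.3% of all genes were higher and 25% lower. The median there was 0.30.

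The interferon signalling list held 22 genes, of which 19 were tested. The 3 others were ligands: Ifnb1 had at most 7 counts in any sample, and Ifna4 and Ifng had 0. Irf9, the DNA-binding part of the interferon-activated complex, fell by 1.84 (adjusted p = 7.6e-06) under ruxolitinib in DMEM and by 1.46 (adjusted p = 4.1e-05) in CM. Stat2 fell by 1.46 and 0.85 in the same comparisons. Irf7, a factor that amplifies the interferon response, fell by 1.55 in DMEM and by 1.41 in CM. Irf1 was not called in either, with -0.66 in DMEM and 0.49 in CM. Usp18, a brake on interferon signalling, had the lowest log2 fold change of the list in both, -2.89 in DMEM and -3.25 in CM. In all, 6 of 19 were lower and 0 higher under ruxolitinib in each medium.

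Of 20 NF-κB target genes, 20 were higher in CM against DMEM, with a median of 2.49, from 0.51 for Relb to Il6, which was at least 2069-fold higher than the 3 counts per sample allowed as a floor in DMEM. In CM + Rux against CM, 0 of 20 were called, with a median of 0.28, while IKK-16 lowered 11 of 20, with a median of -0.83 and -2.29 for Il6. The Schlafen median under IKK-16 was -0.14. In CM + Rux against DMEM + Rux, 20 of 20 NF-κB targets were higher, with a median of 2.93. In the 2 h samples against the 4 h samples, 8 of 30 interferon-stimulated genes were higher and 2 lower, from Ifi44 at 2.70 to Oasl1 at -3.14. Of 20 NF-κB targets, 3 were higher and 4 lower. Among all genes, 12.6% were higher and 10.7% lower in the same comparison. In that comparison Irf1 rose by 1.42 and Irf7 by 1.03, and the Schlafen median was 0.60.

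**Figure D4:**
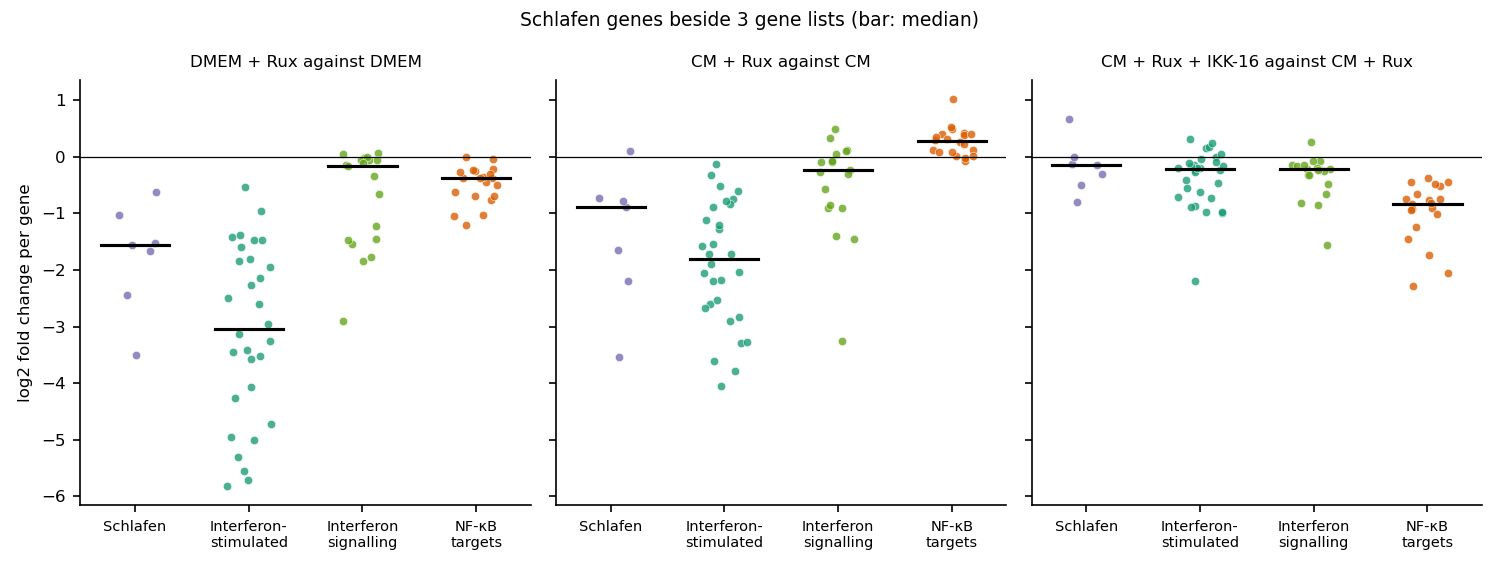
Log2 fold change of each gene (points) and the median (bar) for the Schlafen genes and the 3 pathway lists, under ruxolitinib in DMEM, ruxolitinib in tumor medium and IKK-16 added to both. The Schlafen medians of -1.56 and -0.89 under ruxolitinib lie between those of the interferon-stimulated genes and the NF-κB targets, and under IKK-16 the Schlafen median is -0.14.

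The members differed in the genes whose profiles were most like theirs over the 16 samples. Likeness was the root mean square difference of centred log2(CPM + 0.5) profiles, where a smaller value means a closer profile. Genes with a Slfn name and genes without a symbol were left out of these rankings, and the members are compared with each other below. The 3 genes most like Slfn2 were Gch1, Ell2 and Mapk6, at 0.18, 0.19 and 0.20, where the profile of Slfn2 itself spread by 0.88 around its mean. Gch1 makes a cofactor of nitric oxide synthase, and none of the 3 is on the interferon-stimulated list. Slfn5 was closest to Oas1a, Gbp4 and Ifi204 (0.27, 0.28 and 0.30), and Slfn8 to Ifi35, Parp14 and Casp4 (0.32, 0.34 and 0.35). Slfn1 was closest to Trim30a, Fcgr4 and Ifi202b (0.37, 0.48 and 0.48) and Slfn4 to Trim30a, Fcgr4 and Ifi35 (0.37, 0.39 and 0.43). Slfn3 was closest to Tor1aip2, Cgas and Daxx (0.25, 0.27 and 0.28), where its own profile spread by 0.46. Slfn9 was closest to Gbp9, Dtx3l and Gm15753 (0.41, 0.43 and 0.44), where its own profile spread by 0.80. The spread was 0.97 for Slfn1, 0.80 for Slfn4, 0.92 for Slfn5 and 0.75 for Slfn8.

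Among the members themselves, Slfn1 and Slfn4 had the most alike profiles, with a difference of 0.39. Both were scarce, with DMEM + Rux means of 0.068 CPM for Slfn1 and 0.443 CPM for Slfn4. At such levels the added 0.5 flattens differences between samples. The nearly identical pair Slfn8 and Slfn9 differed by 0.77, and Slfn2 and Slfn9 were the least alike with 1.13. Slfn8 and Slfn9 parted in tumor medium, where Slfn8 rose and Slfn9 fell against DMEM, while both fell under ruxolitinib in DMEM. The groups were also ordered differently by level. For Slfn9 the CM + Rux 2 h and DMEM samples overlapped at the top, and CM, DMEM + Rux, CM + Rux + IKK-16 and last CM + Rux followed, each overlapping with the next. For Slfn8 the CM group was highest, followed by CM + Rux 2 h, DMEM, CM + Rux, the group with IKK-16 and DMEM + Rux, with overlap between CM and CM + Rux 2 h and between DMEM and CM + Rux. The neighbouring pseudogene Slfn10-ps was called higher in CM (0.51, adjusted p = 0.0066) and was not called under ruxolitinib in either medium.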

How the data were processed

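RNA of 16 samples was sequenced from stranded TruSeq libraries. The deposited table holds raw fragment counts per gene, which the authors made with Trimmomatic 0.33, HISAT2 2.1.0 on GRCm38 and featureCounts 1.6.2 (versions from the submitters' processing notes), counting reverse-stranded pairs with a mapping quality of at least 10. The methods name Ensembl release 100. Symbols and positions were taken here from GENCODE M21, also GRCm38, which named 55141 of 55487 identifiers, and those without a name held up to 0.0459% of a sample's counts. Total counts ranged from 18449388 to 46215853, and genes with few counts, such as Slfn1 and Slfn4, have wide errors.

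Samples were grouped by the condition in their labels. Scaling used relative log expression (RLE), the filter asked for a CPM over 1 in 2 or more samples (12372 genes), and 1 model of all 6 groups was fitted with the quasi-likelihood test of edgeR 4.0.16 (limma 3.58.1, R 4.3.3), which was tested on simulated data. Standard errors are the log2 fold change over the root of the F statistic. CPM uses RLE-scaled totals, and levels per kb use merged exon lengths. No samples were copies of each other: the chi-square per degree of freedom between replicates was 13.2 to 50.3. The alternatives were TMM scaling, no filter, filterByExpr, a replicate block, a model of only the groups compared, DESeq2 1.42.0, an adjusted p below 0.1, no fold threshold, each sample left out, and, added after seeing the data, scaling by total counts only.

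Replicate numbers come from the sample titles, which do not say what they share. Samples of the same number deviated together in each of the 15 pairs of the comparisons made (correlations of deviations from group means of 0.163 to 0.717), and over all group pairs in 34 of 35, with a lowest value of -0.01 between a 2 h and a DMEM sample. The numbers were therefore taken to pair the samples in the alternative fit with a replicate block. The main model held no block, so its p-values and calls do not use this pairing.

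The rule for naming genes covered the 7 members, the 3 named genes outside the family most like each member, the extremes of each list in a comparison and the key interferon factors. Only some of these extremes are printed, and 1 gene is not reported here. The members and lists were chosen with earlier results of these data known. Promoter sequences were RefSeq windows, and coding sequences were aligned with Biopython 1.88. Other steps used Python 3.11.15, pandas 2.3.3, numpy 2.4.6 and matplotlib 3.10.9.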

Additional observations from a re-analysis of the deposited data

How the results depend on the processing

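The directions of called members were the same under TMM scaling, both filters, DESeq2, the block, total counts and, where it gave a value, the fit of only the groups compared, which gave none for Slfn4 in CM + Rux against DMEM + Rux. The number of members called for a difference between media in the effect of ruxolitinib was 0 in the model used and changed with the setting: 3 without a filter on low counts, 3 with the replicate block, 2 with DESeq2, 1 at an adjusted p below 0.1, 2 on total counts, and 0 to 1 with 1 sample left out. DESeq2 called 149 of all genes higher and 88 lower for this difference. Shares of all genes were not counted for the other alternative settings. For DMEM + Rux against DMEM the count of 5 became 3 with only the groups compared, 3 to 5 with 1 sample left out, 6 with DESeq2 or the block and 7 without a filter, where Slfn1 and Slfn4 were added (adjusted p = 0.0012 and 0.041). For IKK-16 added to CM + Rux it was 2 without the fold threshold and 1 to 2 with 1 sample left out, and for CM + Rux against DMEM + Rux it was 2 to 4 with 1 sample left out, 3 on total counts and 5 without a filter or without the fold threshold. For CM + Rux against CM it was 6 without a filter, with DESeq2, with the block or at an adjusted p below 0.1, since Slfn9 was added. Pairing the samples by the replicate block added Slfn9 in CM + Rux against CM, Slfn1 in DMEM + Rux against DMEM and the 3 interaction calls, and changed no other call. On total counts the uncalled Slfn3 difference of CM against DMEM turned to -0.014. With 1 sample left out, uncalled values changed sign 16 times. The Slfn1 interaction lay between -1.58 and 0.78 and that of Slfn3 between -0.24 and 0.44. Under IKK-16 the range was -1.26 to 0.74 for Slfn1, -0.52 to 0.022 for Slfn4 and -0.14 to 0.16 for Slfn9. The 2 h difference of Slfn4 was -0.021 to 1.05, and in CM against DMEM Slfn3 lay between -0.012 and 0.67 and Slfn5 between -0.59 and 0.15. The cause of these changes was not tested, and the low counts of Slfn1 and Slfn4 limit what can be seen in them.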
